A study of Mus musculus with 12 samples.

Results

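The genes described here are developmental transcription factors of families that are typical Polycomb targets: the clustered Hox genes, the Irx, sine oculis homeobox, Pax, Tbx, Lhx, Dlx, Msx, Sox, Gata, Meis and Nkx families, and the single genes Wt1 and Gli2. They were chosen by symbol, with no use of measured values, and 134 of the 55492 features in the count table match. Of these, 40 had 10 or more counts in at least 3 of the 12 libraries, and 39 passed the filter on low counts and were tested. The other gene of the 40 was Sox8. A further 77 members under the filter, Sox8 among them, had counts, and 18 had no count in any library.

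The cells were CCN6KOT, a primary line of a spindle metaplastic breast tumour of a mouse, and total RNA was sequenced from 3 libraries in each of 4 groups. DNTCF4_EZH2 and DNTCF4_SET cells carried a dominant negative TCF4 construct plus a second construct labelled EZH2 or SET, DNTCF4 cells carried the dominant negative construct, with the word Vector where the other titles name the second, and Vector cells carried a control lentivirus. All 4 groups shared the CCN6KOT background, lentiviral transduction and puromycin selection. TCF4, the product of Tcf7l2, binds beta-catenin at the target genes of Wnt signalling. EZH2 is the catalytic subunit of PRC2, a Polycomb complex. Neither SET nor the term PPGS in the control titles is expanded in the labels. All values come from 1 line, and the labels do not say whether a transduced population was 1 clone, nor whether replicate libraries were separate cultures. The p-values therefore rest on the spread between these libraries alone, which may be technical.

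Developmental transcription factors set regional and cell identity in the embryo, and most are silent in any given adult cell. PRC2 places the H3K27me3 mark over their CpG-rich promoters in cells that do not use them, and removal of the mark or binding of activators such as beta-catenin with TCF factors can permit their transcription. Chromatin was not measured in the data used here, so levels of RNA are all that is described. Levels are counts per library total (CPM, scaled by TMM factors), differences are given as log2 fold changes and their standard errors (SE), and a gene is said to have risen or fallen where edgeR's quasi-likelihood test gave a Benjamini-Hochberg adjusted p under 0.05 over all 15052 genes tested.

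Library totals ran from 23597545 to 33999982 counts. Ezh2 was high in both groups with a second construct: it averaged 450 ± 20.5 CPM in DNTCF4_EZH2, 546 ± 33.1 in DNTCF4_SET, 65.4 ± 3.1 in DNTCF4 and 57.9 ± 1.53 in Vector (SD, n = 3 each). Reads of a construct cannot be told apart from those of the cells' own gene. The epithelial list of 7 genes summed to 325.8 to 369.5 CPM per library, and 3 of its genes averaged at least 1 CPM in each group, or 4 in DNTCF4_SET. Of these markers Krt18 averaged 229 to 255 CPM in the 4 groups, whereas Epcam and Cdh1 averaged at most 1.01 CPM and Krt5 had no count in DNTCF4_SET, DNTCF4 or Vector. The fibroblast markers Pdgfra, Dcn and Col1a1 were abundant, with a summed list level of 1024 to 1462 CPM per library, whereas Lum and Thy1, the rest of that list, averaged under 1 CPM and both were at 0 in DNTCF4 and Vector. The immune list summed to 44.9 to 72 CPM, nearly all of it Cd68, with Ptprc at 0 in DNTCF4, and the endothelial list to 1.97 to 4.51 CPM. The Schwann and melanocyte list summed to 15.6 to 22.6 CPM, the neural list to 214 to 246, mostly Nes, and the adipocyte list to at most 0.29. The muscle list summed to at most 1.04 CPM in the groups with dominant negative TCF4 and to 2.6 to 3.44 in Vector, mostly Acta1, with Myod1 at 0 throughout; its part in the results below was not tested. In these bulk libraries fewer cells of a type and less RNA per cell cannot be told apart.

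Families differed in how many of their genes had enough counts to be tested. Irx had 4 of 6 members tested, Gata, Dlx and the sine oculis family had 3 of 6 each and Sox had 8 of 19. Of the 39 Hox genes, which set position along the body axis, only 3 Hoxa genes were tested, and none of the Hoxb, Hoxc or Hoxd genes was. None of the 14 Nkx genes, which pattern the ventral neural tube, foregut and heart, passed the filter. The genes without a count were Hoxa11, Hoxb7, Hoxc5, Hoxc12, Hoxd3, Hoxd8, Irx4, Nkx1-2, Nkx2-5, Nkx2-9, Nkx6-2, Pax1, Pax7, Six6, Sox3, Sox14, Sox21 and Tbx4.

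**Figure D1:**
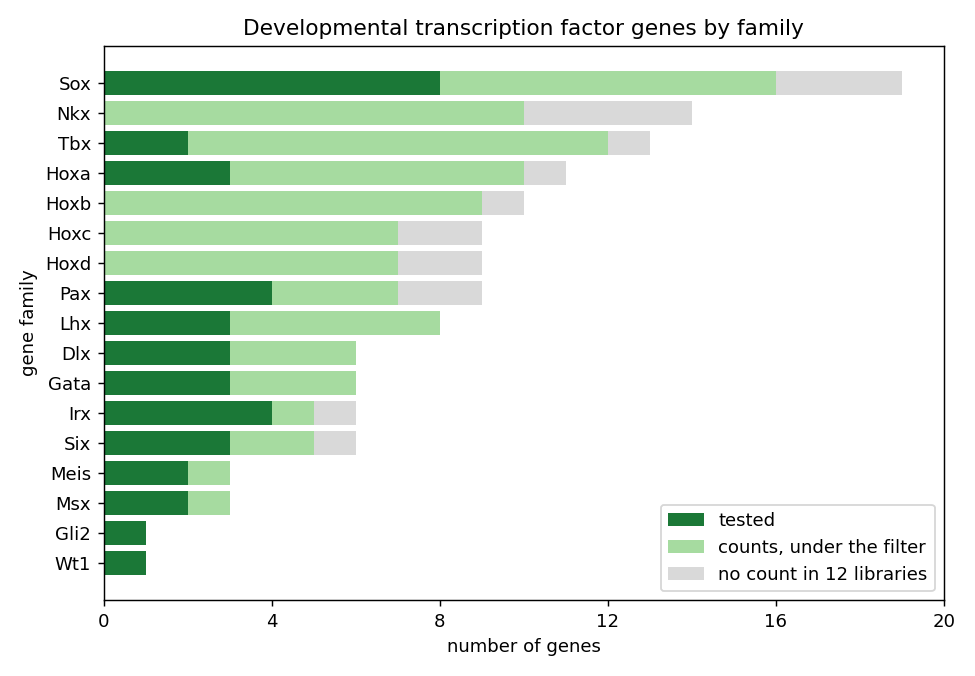
Number of genes (x axis) in each family (y axis), split into those tested, those with counts under the filter and those with no count in the 12 libraries. Sox has the most tested genes, 8 of 19, and Hoxb, Hoxc, Hoxd and Nkx have none.

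Irx1, Sox4 and Irx2 had the highest levels. Per kilobase of exon, Irx1 stood at 118, 114, 103 and 119 CPM in DNTCF4_EZH2, DNTCF4_SET, DNTCF4 and Vector, and Sox4 stood at 104, 118, 118 and 68 CPM per kilobase in the same order of groups. Irx2 came next at 64.7, 60.5, 68.1 and 48.2 CPM per kilobase. These 3 genes together held 67.3% to 68% of all member counts in the DNTCF4_EZH2 libraries, 69.2% to 69.7% in DNTCF4_SET, 68.2% to 70.4% in DNTCF4 and 58.6% to 60% in Vector. The member counts in turn were 0.133% to 0.162% of a library. Irx3, Sox12, Irx5 and Sox9 formed a second tier between 6.37 and 26.8 CPM per kilobase, and every other tested member averaged at most 6.84 in each group.

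The first comparison asks which of these factors differ in cells carrying dominant negative TCF4. Between DNTCF4 and Vector 12 of the 39 tested members rose and 14 fell, among them a gain of Sox11, nearly absent in Vector, and losses of Lhx2, Irx3 and Wt1. Over all genes tested 29.5% rose and 28% fell, so the 12 that rose are a share near that of all genes, and the 14 that fell are not far from it. The median log2 change of the members was 0.0, against 0.01 for all genes. The median size of the change, disregarding sign, was 0.5 for the members and 0.27 for all genes, and 13 members changed at least 2-fold (6 higher, 7 lower) where 11.7% of all genes did. Those 13 include Gli2, Tbx1, Tbx6, Lhx2, Lhx9, Msx3, Pax5 and Pax8, all at low counts. Members and all genes were not matched by level, so a larger change of these factors at equal level was not tested. The groups did not overlap for 25 members, against 59.3% of all genes. Lhx2 passed the filter through Vector alone, and Gli2 and Tbx1 through the DNTCF4 lines alone. The way these 3 were admitted thus favoured a difference from Vector, and their tests are not independent of it. Msx3 and Pax8 reached the filter's 0.361 CPM in every Vector library and in no DNTCF4 library. The Vector libraries were thus enough to admit them, and their falls share that selection.

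**Figure D2:**
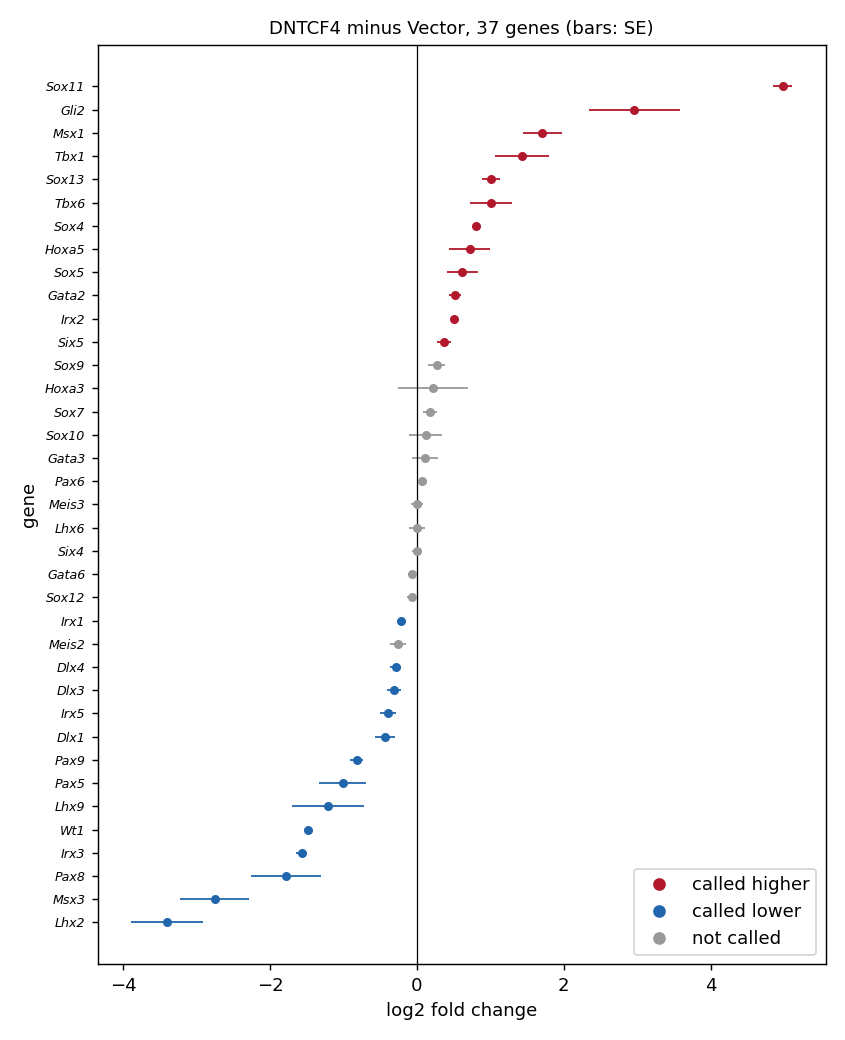
Log2 fold change of DNTCF4 over Vector (x axis) for 37 of the 39 tested genes (y axis), with bars for the SE; red points rose, blue points fell and grey points did not pass the test. Sox11 lies at 4.98 and Lhx2 at -3.4, with 12 red and 13 blue points.

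The promoters of 4 genes at the ends of that range are shown because CpG-rich sequence before the start site is what Polycomb complexes are known to occupy at such genes: Sox11 and Gli2, which had the largest rises, Lhx2, which had the largest fall, and Sox4, the most abundant gene that rose. Each is the 250 bases before the RefSeq start in GRCm38.p6, written 5′ to 3′ on the gene's strand with CpG dinucleotides in capitals. The windows are chr12:27342719-27342968, minus strand, for Sox11, chr1:119053620-119053869, minus strand, for Gli2, chr2:38339031-38339280, plus strand, for Lhx2 and chr13:28953700-28953949, minus strand, for Sox4.
Sox11: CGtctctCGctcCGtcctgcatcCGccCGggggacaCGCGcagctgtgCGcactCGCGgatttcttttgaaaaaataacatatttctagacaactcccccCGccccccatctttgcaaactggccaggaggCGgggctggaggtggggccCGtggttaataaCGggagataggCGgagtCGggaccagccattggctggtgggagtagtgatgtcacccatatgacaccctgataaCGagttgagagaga
Gli2: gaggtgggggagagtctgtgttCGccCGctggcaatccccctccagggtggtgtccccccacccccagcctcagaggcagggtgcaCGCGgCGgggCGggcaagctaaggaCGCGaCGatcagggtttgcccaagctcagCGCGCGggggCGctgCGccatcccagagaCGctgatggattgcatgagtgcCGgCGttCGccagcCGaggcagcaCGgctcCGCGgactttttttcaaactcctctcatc
Lhx2: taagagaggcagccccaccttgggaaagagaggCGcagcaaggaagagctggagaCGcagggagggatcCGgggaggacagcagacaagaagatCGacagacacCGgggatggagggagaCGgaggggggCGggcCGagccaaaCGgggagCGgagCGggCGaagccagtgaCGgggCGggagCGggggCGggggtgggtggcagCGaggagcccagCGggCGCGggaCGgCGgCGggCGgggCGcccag
Sox4: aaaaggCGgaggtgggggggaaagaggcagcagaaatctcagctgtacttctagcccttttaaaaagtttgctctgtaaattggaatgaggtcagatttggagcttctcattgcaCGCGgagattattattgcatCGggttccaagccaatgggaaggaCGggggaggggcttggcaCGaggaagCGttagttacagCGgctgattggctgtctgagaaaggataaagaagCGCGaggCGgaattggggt
They hold 17, 22, 25 and 11 CpG in the order shown, against a median of 6 over the 27025 promoters of the RefSeq table cut in the same way, so the gene that fell most and those that rose most all lie above that median. Their GC contents are 58%, 67.2%, 72.8% and 50.8%, against a median of 52%. The TCF motif CTTTGAT, searched on both strands, is in none of the 4 windows and in 3.23% of all promoters, which says only that these letters are not in these windows. The table matched 90 of the 134 members, or 67.2%, so members as a set were not compared with other promoters.

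The SOX genes that changed all rose. Sox11 (ENSMUSG00000063632, chromosome 12, 27334264 to 27342574, minus strand), a SOXC factor of embryonic neurons and progenitors, had 24.5, 23.4 and 26.1 CPM in DNTCF4_EZH2, 26.8, 24.5 and 26.4 in DNTCF4_SET and 22.4, 23 and 22.2 in DNTCF4, against 0.565, 1.04 and 0.503 in Vector. Every library with the dominant negative construct lay far above every Vector library, and DNTCF4 exceeded Vector 31.6-fold (log2 4.98, SE 0.13, adjusted p = 9.8e-14 in edgeR). Its SOXC relative Sox4 (ENSMUSG00000076431, chromosome 13, 28948919 to 28953713, minus strand), a factor of progenitor and tumour cells, had 548, 586 and 569 CPM in DNTCF4, against 328, 323 and 327 in Vector. The groups did not overlap and the rise was 1.74-fold (log2 0.80, SE 0.032, adjusted p = 1.4e-11 in edgeR). An antisense gene model, Gm26735, overlaps 54.6% of the Sox4 exon bases and was not analysed here, and the sources used here do not say whether counting used strand. Sox12, the last SOXC gene, had 88.9, 114 and 108 CPM in DNTCF4, against 109, 108 and 110 in Vector, and did not pass the test (log2 -0.07, adjusted p = 0.38 in edgeR).

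Of the SOXD genes, whose products lack an activation domain of their own, Sox13 had 6.1, 5.57 and 6.71 CPM in DNTCF4, against 3.17, 3.33 and 2.56 in Vector, and rose 2-fold with no overlap (log2 1.01, SE 0.12, adjusted p = 3.9e-06 in edgeR). Sox5 had 1.79, 2.58 and 2.35 CPM in DNTCF4, against 1.81, 1.55 and 1.01 in Vector. These overlap, and the call (log2 0.62, adjusted p = 0.022 in edgeR) was lost without Vector replicate 3 (log2 0.42) or DNTCF4 replicate 2 (log2 0.49). Sox9, a factor of cartilage and of epithelial progenitors, had 41.5, 62.1 and 52.6 CPM in DNTCF4, against 38.8, 48.1 and 42.5 in Vector, and did not pass the test (log2 0.27, adjusted p = 0.055 in edgeR). It did pass without DNTCF4 replicate 1 (log2 0.41, adjusted p = 0.000261 in edgeR), without Vector replicate 2 (log2 0.37, adjusted p = 0.0295 in edgeR) and with no filter on low counts (log2 0.28), and without DNTCF4 replicate 2 its log2 change was 0.12. Sox7, of the endothelial SOXF group, passed without DNTCF4 replicate 1 (log2 0.25, adjusted p = 0.0246 in edgeR) and not with all libraries (log2 0.18), and Sox10, a neural crest factor, did not pass the test.

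DNTCF4 replicate 1 stood apart within its group, since its chi-square per degree of freedom was 20.7 and 13.1 against the other replicates, which gave 3.33 between them. It was the lowest of the 3 DNTCF4 libraries for 17 of the 22 members with at least 5 CPM there, and the highest for 2. The DNTCF4_EZH2 group was uneven by the same measure, with 16.3 between replicates 1 and 2 and 6.33 and 6.09 for its other pairs.

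The Iroquois genes, homeodomain factors that sit in 2 clusters and pattern neural tube, heart and limb, moved in different directions. On chromosome 13, Irx2 (ENSMUSG00000001504, chromosome 13, 72628820 to 72634198, plus strand) had 215, 230 and 225 CPM in DNTCF4, against 155, 157 and 162 in Vector, and rose 1.41-fold (log2 0.50, SE 0.04, adjusted p = 4.4e-08 in edgeR). Its neighbour Irx1 (ENSMUSG00000060969, chromosome 13, 71957921 to 71963723, minus strand) had 232, 295 and 279 CPM in DNTCF4, against 307, 312 and 316 in Vector. Irx1 fell (log2 -0.21, SE 0.064, adjusted p = 0.01 in edgeR) with no overlap, and the change was -0.12 without DNTCF4 replicate 1. Irx4, the other gene of this cluster, had no count, so of 3 neighbours 1 rose, 1 fell and 1 was silent.

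On chromosome 8, Irx3 (ENSMUSG00000031734, chromosome 8, 91798525 to 91802067, minus strand) had 16.6, 17.7 and 18.4 CPM in DNTCF4_EZH2, 20.7, 20 and 18.6 in DNTCF4_SET and 21.6, 27.6 and 25.6 in DNTCF4, against 75, 73.6 and 73.7 in Vector. The Vector libraries stood apart from the other 9, and Irx3 fell 2.97-fold in DNTCF4 (log2 -1.57, SE 0.07, adjusted p = 4.9e-11 in edgeR). Irx5 (ENSMUSG00000031737, chromosome 8, 92357625 to 92376286, plus strand) had 32.7, 51.5 and 45.8 CPM in DNTCF4, against 55.1, 56 and 59.7 in Vector. It fell without overlap (log2 -0.39, SE 0.11, adjusted p = 0.0062 in edgeR), and by -0.23 without DNTCF4 replicate 1. Irx6, the third of this cluster, had 1 count in all 12 libraries.

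Wt1 (ENSMUSG00000016458, chromosome 2, 105126529 to 105173616, plus strand), a zinc finger factor of kidney, gonad and mesothelium, had 15.5, 16.2 and 16.5 CPM in DNTCF4_EZH2, 13.2, 13.4 and 13.9 in DNTCF4_SET and 11.4, 10.9 and 12.3 in DNTCF4, against 31.9, 31.2 and 33.4 in Vector. No 2 of the 4 groups overlap, with Vector highest and DNTCF4 lowest. The fall in DNTCF4 against Vector was 2.79-fold (log2 -1.48, SE 0.06, adjusted p = 1.4e-11 in edgeR).

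**Figure D3:**
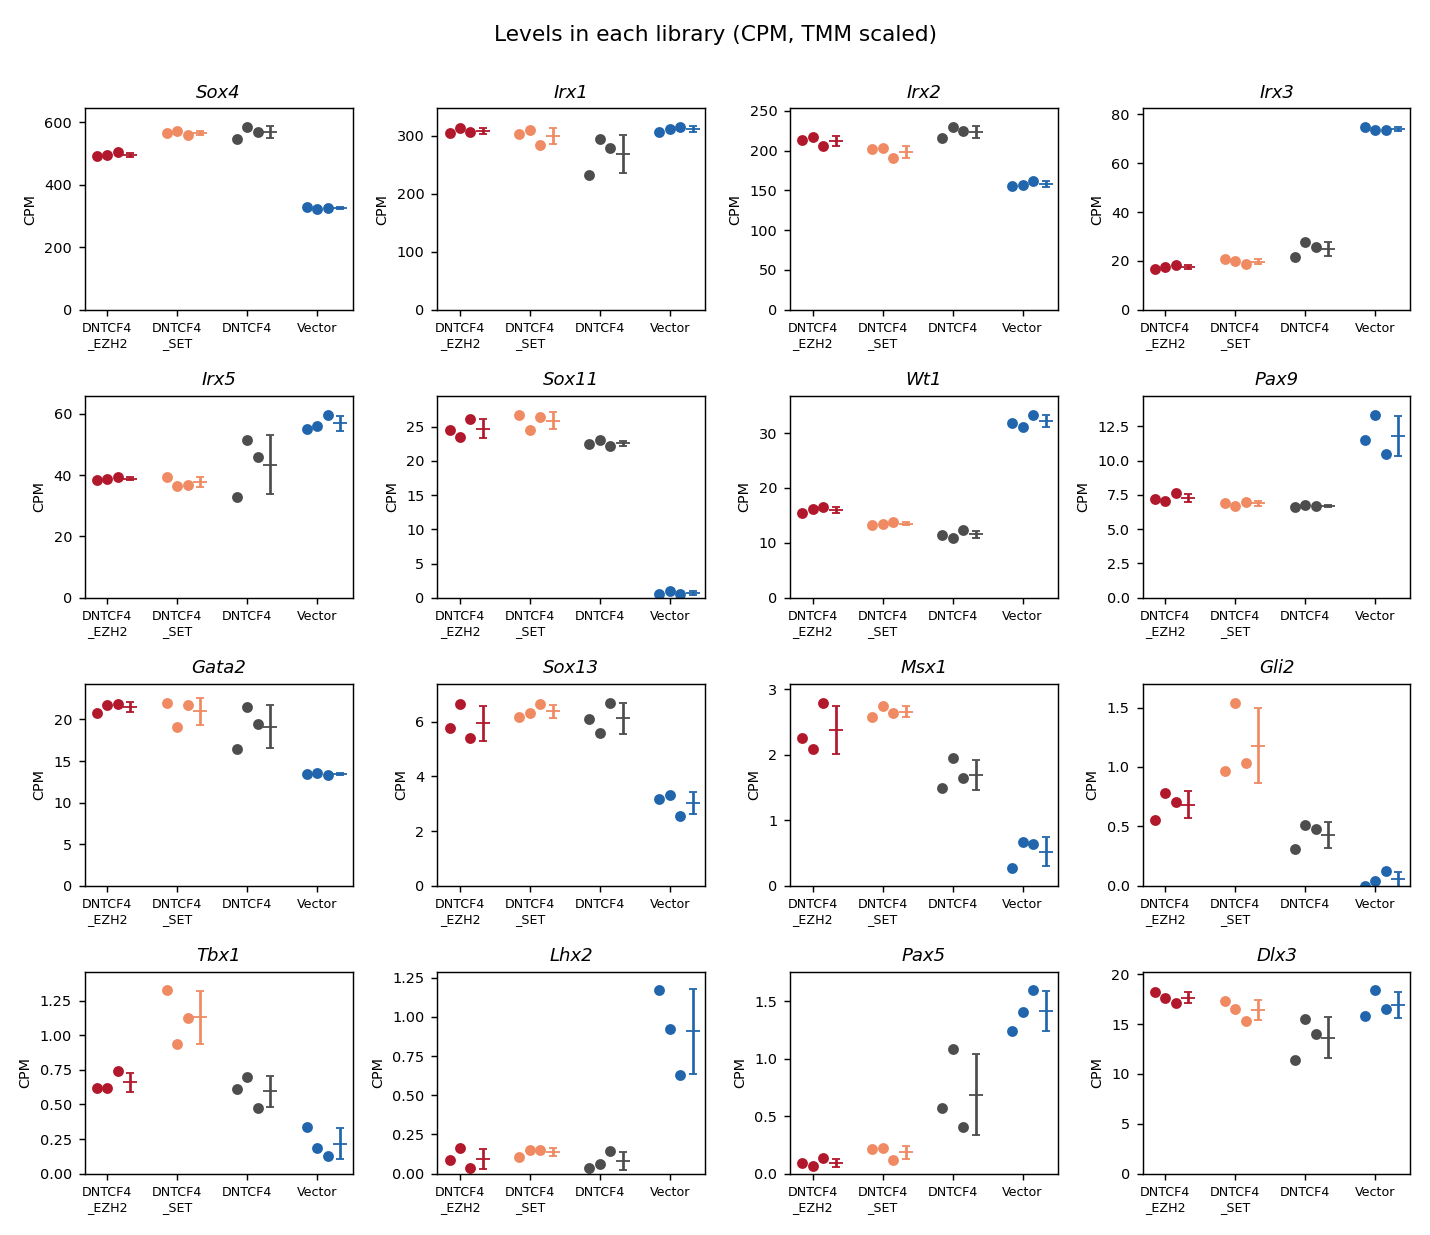
Level in CPM (y axis, from 0, a scale per gene) of 16 members in each library, by group (x axis); points are libraries and the bar beside them is the mean with its SD. Sox11 is near 0 in Vector alone, Irx3, Wt1 and Lhx2 are highest in Vector, and Pax5 is lower with a second construct than in DNTCF4.

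Several members lay near the detection limit and differed by a larger factor. Gli2 (ENSMUSG00000048402, chromosome 1, 118834132 to 119053619, minus strand), the main activator of Hedgehog target genes, had 19, 24 and 21 counts in DNTCF4_EZH2, 27, 41 and 34 in DNTCF4_SET and 8, 16 and 13 in DNTCF4, against 0, 1 and 3 in Vector. It rose in DNTCF4 (log2 2.96, SE 0.62, adjusted p = 0.00077 in edgeR) with no overlap, on few counts. Gli2 passed the filter through the DNTCF4 lines alone, so this separation and p-value share that selection. Msx1, a homeodomain factor of limb bud and facial mesenchyme, had 1.49, 1.94 and 1.65 CPM in DNTCF4, against 0.264, 0.666 and 0.629 in Vector, and rose (log2 1.71, SE 0.26, adjusted p = 4.7e-05 in edgeR). Tbx1, of the pharyngeal arches, had 0.61, 0.701 and 0.476 CPM in DNTCF4, against 0.339, 0.185 and 0.126 in Vector, and rose too (log2 1.43, adjusted p = 0.0037 in edgeR). The same selection through the DNTCF4 lines alone applies to Tbx1. Tbx6, of paraxial mesoderm, rose (log2 1.01, adjusted p = 0.0073 in edgeR), a call lost without DNTCF4 replicate 1 (log2 0.9, adjusted p = 0.0522 in edgeR).

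Among the falls at low level, Lhx2 (ENSMUSG00000000247, chromosome 2, 38339281 to 38369733, plus strand), a LIM homeodomain factor of eye, forebrain and hair follicle, had 1, 2 and 4 counts in DNTCF4, against 31, 25 and 15 in Vector. Every Vector library exceeded every other library, and the fitted change was -3.4 (SE 0.49, adjusted p = 2.7e-05 in edgeR). Lhx2 passed the filter through Vector alone, so this separation and p-value share that selection. Msx3, known from the dorsal neural tube of the mouse, had 0.0762, 0.191 and 0.0733 CPM in DNTCF4, against 0.791, 0.814 and 0.839 in Vector (log2 -2.75, SE 0.47, adjusted p = 0.00013 in edgeR). Pax8, a thyroid and kidney factor, had 0.152, 0.159 and 0.33 CPM in DNTCF4, against 0.641, 0.629 and 0.965 in Vector (log2 -1.78, adjusted p = 0.0047 in edgeR). The antisense gene Gm13415 shares 6.06% of the Pax8 exon bases and had 1634 counts where Pax8 had 118. Lhx9, the other LIM gene that fell, named after its values were seen, overlapped between groups (log2 -1.21, adjusted p = 0.044 in edgeR), and its call was lost in 11 of the 12 fits that left out 1 library (log2 -1.51 to -0.84 over the 12).

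Other PAX, DLX, GATA, HOX and sine oculis genes changed by smaller factors. Pax9, of pharyngeal pouches and teeth, had 6.63, 6.75 and 6.71 CPM in DNTCF4, against 11.5, 13.3 and 10.5 in Vector, and fell 1.76-fold (log2 -0.82, SE 0.086, adjusted p = 1e-06 in edgeR). Dlx1, Dlx3 and Dlx4, distal-less factors of face, skin and limb, all fell, by -0.43, -0.31 and -0.29 on the log2 scale (adjusted p = 0.015, 0.012 and 0.0046 in edgeR). Of these, Dlx3 lost its call without Vector replicate 2 (log2 -0.24) and moved to -0.20 without DNTCF4 replicate 1. Gata2, a factor of blood progenitors and endothelium, had 16.5, 21.6 and 19.4 CPM in DNTCF4, against 13.4, 13.5 and 13.3 in Vector, and rose 1.43-fold (log2 0.52, adjusted p = 0.00012 in edgeR). The other GATA genes tested, Gata6 and the luminal mammary factor Gata3, did not pass the test.

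Hoxa5, of lung and neck level, rose (log2 0.72, adjusted p = 0.037 in edgeR), a call lost without any 1 of Vector replicates 2 and 3 and DNTCF4 replicates 1 and 2 (log2 0.59 to 0.76). It was also lost with no filter and with only the 6 libraries compared (adjusted p = 0.0689 and 0.0626 in edgeR). DESeq2's Wald test did not call it either (adjusted p = 0.0834). Six5 rose (log2 0.37, adjusted p = 0.0058 in edgeR), whereas Six4 and the HOX cofactors Meis2 and Meis3 did not pass the test. Meis2 did so without DNTCF4 replicate 1 (log2 -0.32, adjusted p = 0.0272 in edgeR), against -0.26 with all libraries. It also passed, at -0.26, without DNTCF4_EZH2 replicate 2 or DNTCF4_SET replicate 3, of groups not compared (adjusted p = 0.0437 and 0.0458 in edgeR). Pax6, an eye and forebrain regulator, had 25.7, 28.3 and 26 CPM in DNTCF4 and 26.8, 25.6 and 24.1 CPM in Vector, and passed no comparison between groups.

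The second comparison asks what the added EZH2 construct changed in cells that carry dominant negative TCF4. Between DNTCF4_EZH2 and DNTCF4 4 members rose, Wt1, Dlx3, Sox7 and Irx1, and 3 fell, Pax5, Irx3 and Sox4. Over all genes tested 13% rose and 12.5% fell, so these counts lie near or below the background. The median change of the members was 0.11 against 0 for all genes, and the groups did not overlap for 13 members, against 39.1% of all genes. Pax5 alone changed at least 2-fold. Of the 14 members that had fallen in DNTCF4 against Vector, Wt1, Dlx3 and Irx1 were among those that rose here. DNTCF4 is shared by both comparisons, so its own error moves both in opposite directions.

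Wt1 was 1.39-fold higher in DNTCF4_EZH2 than in DNTCF4 (log2 0.48, SE 0.062, adjusted p = 4.3e-05 in edgeR) and still below Vector (log2 -1.0, adjusted p = 7.72e-10 in edgeR), as the library values above show. Dlx3 had 18.2, 17.7 and 17.1 CPM in DNTCF4_EZH2, against 11.4, 15.5 and 14 in DNTCF4, and rose without overlap (log2 0.37, SE 0.093, adjusted p = 0.0087 in edgeR). Irx1 had 305, 314 and 307 CPM in DNTCF4_EZH2, above the DNTCF4 values given above (log2 0.20, SE 0.064, adjusted p = 0.031 in edgeR). That call was lost without any of the 3 DNTCF4_EZH2 libraries, and the change was 0.1 without DNTCF4 replicate 1. Sox7 had 16.9, 16.6 and 16.8 CPM in DNTCF4_EZH2, against 11.9, 12.8 and 15.7 in DNTCF4 (log2 0.32, SE 0.091, adjusted p = 0.018 in edgeR), and was lost without DNTCF4 replicate 2 or DNTCF4_EZH2 replicate 1 or 3, with log2 changes of 0.24 to 0.45 over the libraries left out.

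Pax5, the B-lineage commitment factor, had 0.088, 0.0653 and 0.135 CPM in DNTCF4_EZH2, 0.215, 0.226 and 0.121 in DNTCF4_SET and 0.572, 1.08 and 0.403 in DNTCF4, against 1.24, 1.41 and 1.59 in Vector. Vector and DNTCF4 each lay above all libraries with a second construct. Pax5 fell in DNTCF4_EZH2 against DNTCF4 (log2 -2.81, SE 0.47, adjusted p = 0.00046 in edgeR) and in DNTCF4_SET against DNTCF4 (log2 -1.9, SE 0.43, adjusted p = 0.0043 in edgeR). Against Vector it had fallen in DNTCF4 already (log2 -1.01, adjusted p = 0.013 in edgeR), a call lost without DNTCF4 replicate 1 (log2 -0.91) or replicate 3 (log2 -0.74) and at -1.54 without replicate 2.

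Irx3 was 1.42-fold lower in DNTCF4_EZH2 than in DNTCF4 (log2 -0.51, SE 0.076, adjusted p = 0.00016 in edgeR), so that its level in DNTCF4_EZH2 was the farthest from Vector (log2 -2.08). Sox4 had 492, 494 and 504 CPM in DNTCF4_EZH2, against 548, 586 and 569 in DNTCF4, and fell without overlap (log2 -0.19, SE 0.032, adjusted p = 0.0004 in edgeR). Sox11 did not pass the test in either second-construct group (log2 0.13, adjusted p = 0.23 in DNTCF4_EZH2, and log2 0.2, adjusted p = 0.065 in DNTCF4_SET, both in edgeR), and all 6 of those libraries were above the 3 of DNTCF4. In DNTCF4_SET it passed with DESeq2 size factors and with only the 6 libraries compared (adjusted p = 0.0473 and 0.0456 in edgeR). It also passed without Vector replicate 2, with or without DNTCF4_SET replicate 2 (adjusted p = 0.0216 and 0.0132 in edgeR). So it did in DESeq2's Wald test and in limma on the deposited regularised log2 values (adjusted p = 0.0271 and 0.0236). Irx5 did not pass the test against DNTCF4 in either group with all libraries and the filter, but fell without DNTCF4 replicate 1 (log2 -0.33, adjusted p = 8.4e-05 in DNTCF4_EZH2, and log2 -0.38, adjusted p = 2.11e-05 in DNTCF4_SET, both in edgeR). In DNTCF4_SET it also fell with all libraries and no filter on low counts (log2 -0.21, adjusted p = 0.00431 in edgeR). Without DNTCF4 replicate 1 Sox12, Gata6 and Irx2 fell in DNTCF4_EZH2 as well (log2 -0.14, -0.14 and -0.10, adjusted p = 0.00517, 0.0353 and 0.0339 in edgeR).

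The third comparison sets the SET construct against the same DNTCF4 cells. Gli2, Tbx1, Msx1 and Wt1 rose in DNTCF4_SET, and Pax5, Irx3, Sox12 and Irx2 fell, 4 in each direction, where 12.7% of all genes tested rose and 13.3% fell. That is again near the background, with a median change of 0.06 for the members and 0 for all genes, and with 12 members whose groups did not overlap against 37.2% of all genes. Gli2 rose beyond its rise in DNTCF4 (log2 1.43, SE 0.35, adjusted p = 0.0073 in edgeR), and lost the call without DNTCF4_SET replicate 2 (log2 1.2, adjusted p = 0.0525 in edgeR). Tbx1 had 1.32, 0.941 and 1.12 CPM in DNTCF4_SET, against 0.61, 0.701 and 0.476 in DNTCF4 (log2 0.91, SE 0.28, adjusted p = 0.025 in edgeR), and Msx1 had 2.58, 2.75 and 2.64 CPM in DNTCF4_SET, against 1.49, 1.94 and 1.65 in DNTCF4 (log2 0.64, SE 0.2, adjusted p = 0.027 in edgeR). Neither overlapped, yet Tbx1 lost its call without DNTCF4 replicate 1 or 3 or DNTCF4_SET replicate 1 or 3, and Msx1 without DNTCF4 replicate 1 or 3 or any DNTCF4_SET library.

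Wt1 rose 1.17-fold in DNTCF4_SET against DNTCF4 (log2 0.23, SE 0.063, adjusted p = 0.015 in edgeR), and lost the call without DNTCF4 replicate 2 (log2 0.19) or DNTCF4_SET replicate 3 (log2 0.21). Irx3 fell 1.27-fold (log2 -0.34, SE 0.076, adjusted p = 0.0039 in edgeR). Irx2 had 202, 204 and 190 CPM in DNTCF4_SET, against 215, 230 and 225 in DNTCF4, and fell without overlap (log2 -0.17, SE 0.039, adjusted p = 0.0052 in edgeR). Sox12 had 91.8, 90.9 and 88 CPM in DNTCF4_SET, against 88.9, 114 and 108 in DNTCF4; these overlap, and the call (log2 -0.2, adjusted p = 0.033 in edgeR) was lost in 8 of the 12 fits that left out 1 library. Without DNTCF4 replicate 1 it was kept, at -0.31, and without DNTCF4 replicate 2 the change was -0.13. Sox4 in DNTCF4_SET, at 568, 573 and 559 CPM, differed from DNTCF4 by a log2 change of -0.0 (SE 0.032, adjusted p = 0.95 in edgeR).

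**Figure D4:**
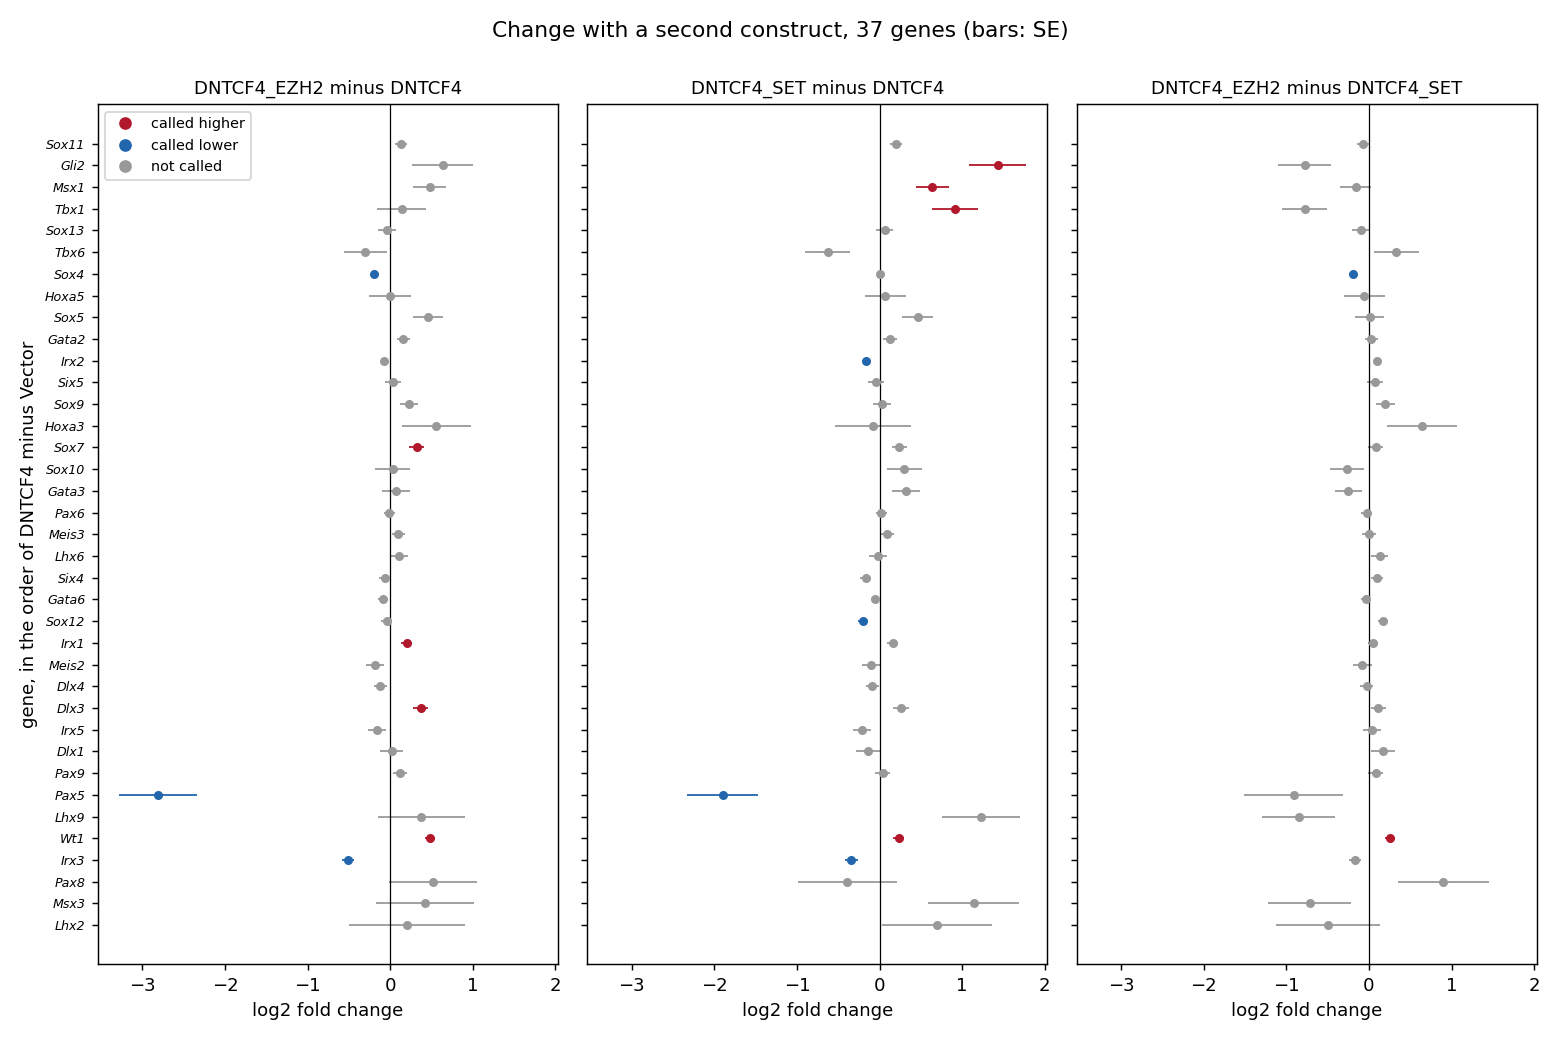
Log2 fold change with its SE (x axis) of 37 of the 39 tested genes (y axis, ordered by DNTCF4 minus Vector) for DNTCF4_EZH2 minus DNTCF4, DNTCF4_SET minus DNTCF4 and DNTCF4_EZH2 minus DNTCF4_SET; red points rose, blue fell and grey did not pass the test. Pax5 is the farthest point in the first panel, at -2.81, and 2 genes are coloured in the last.

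Set against each other, DNTCF4_EZH2 and DNTCF4_SET differed in 2 members of 39, where 5.16% of all genes tested differed, 3% higher and 2.17% lower in DNTCF4_EZH2, and the groups did not overlap for 13 members, against 31.8% of all genes. Wt1 was higher in DNTCF4_EZH2 (log2 0.25, SE 0.06, adjusted p = 0.026 in edgeR), a call lost without any 1 of the 6 libraries compared although the groups do not overlap. Sox4 was lower in DNTCF4_EZH2 (log2 -0.19, SE 0.032, adjusted p = 0.0027 in edgeR), and this call held in each fit without 1 library. For Gli2 and Tbx1, called against DNTCF4 in the SET group alone, the difference between the second-construct groups did not pass the test (log2 -0.78, adjusted p = 0.19 for Gli2, and log2 -0.78, adjusted p = 0.12 for Tbx1, both in edgeR). With only the 6 libraries compared, Tbx1 passed at the same log2 change (adjusted p = 0.0415 in edgeR).

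Against Vector, the Sox11, Sox4, Irx3 and Wt1 differences were present with a second construct too. In DNTCF4_EZH2 14 members were higher and 12 lower than in Vector, where 28.7% of all genes tested were higher and 29% lower, and in DNTCF4_SET 15 were higher and 13 lower, where 28.1% and 29.9% of all genes were. The groups did not overlap for 27 members in DNTCF4_EZH2 and 31 in DNTCF4_SET, against 68.1% and 66.1% of all genes. Sox11 exceeded Vector by log2 5.11 in DNTCF4_EZH2 and 5.18 in DNTCF4_SET (adjusted p = 5.35e-14 and 4.6e-14 in edgeR), beside 4.98 in DNTCF4. Irx3 lay below Vector by -2.08 and -1.91, beside -1.57, and Wt1 by -1.0 and -1.25, beside -1.48, on the log2 scale. Irx1 did not pass the test against Vector in DNTCF4_EZH2 (log2 -0.01, adjusted p = 0.874 in edgeR) or in DNTCF4_SET (log2 -0.06, adjusted p = 0.457 in edgeR). Sox12 fell in DNTCF4_SET against Vector (log2 -0.27, adjusted p = 0.00228 in edgeR), and in DNTCF4_EZH2 it did not pass the test (log2 -0.11, adjusted p = 0.173 in edgeR). At the same log2 change it passed there with only the 6 libraries compared and without DNTCF4 replicate 1 (adjusted p = 0.0039 and 0.00386 in edgeR). These 3 comparisons share the Vector libraries.

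Members under the filter were counted over libraries only. Of the 95, 34, 33 and 30 had a count in the DNTCF4_EZH2 libraries, 40, 43 and 47 in DNTCF4_SET and 16, 22 and 22 in DNTCF4, against 49, 60 and 49 in Vector. Their summed level was 2.79, 2.74 and 2.86 CPM in DNTCF4_EZH2, 3.83, 5.83 and 3.92 in DNTCF4_SET and 1.79, 2.1 and 2.97 in DNTCF4, against 6.26, 16.6 and 8.51 in Vector. Vector was thus highest and its replicate 2 the highest library, and 55 of the 77 with counts had their highest mean in Vector. Reads on 1768 olfactory and vomeronasal receptor genes, expressed in sensory neurons, were also highest in Vector and its replicate 2. They summed to 59.5, 56.4 and 57.1 CPM in DNTCF4_EZH2, 60.6, 88.8 and 69.8 in DNTCF4_SET and 54.5, 45.9 and 45.9 in DNTCF4, against 93.7, 282 and 142 in Vector. Of these genes 306, 246 and 235 had a count in the DNTCF4_EZH2 libraries, 314, 464 and 411 in DNTCF4_SET and 69, 80 and 76 in DNTCF4, against 538, 750 and 597 in Vector. Within DNTCF4 the orders differed: replicate 1 had the highest receptor sum and the lowest sum of the low members. The part of whatever raised those reads in the low members was not tested.

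**Figure D5:**
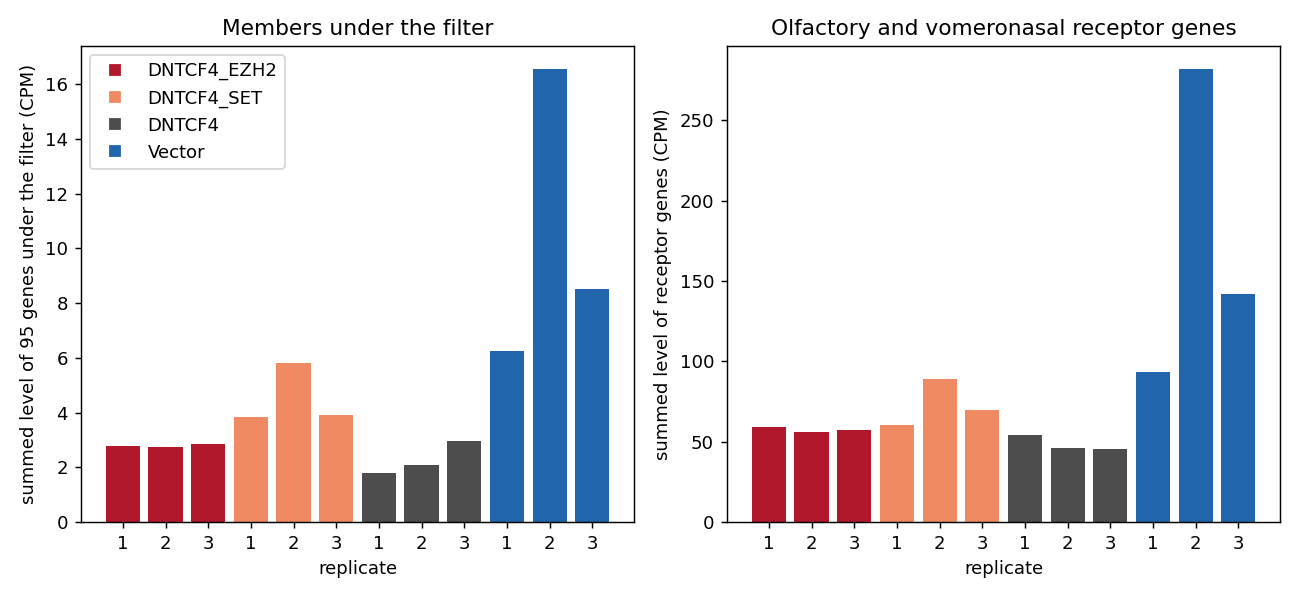
Summed level in CPM (y axis, from 0) of the 95 members under the filter, left, and of the olfactory and vomeronasal receptor genes, right, in each library (x axis, replicate number, coloured by group). Vector replicate 2 is highest in both, at 16.6 and 282 CPM.

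Of these members 67 had counts in Vector, of which 45 had none in DNTCF4, and 6 had counts in DNTCF4 and none in Vector. For 41 members replicate 2 held more counts than either other Vector library. The Hox genes under the filter, 30 with counts in some library and 6 with none, followed the same order. Of them 11, 10 and 9 had a count in the DNTCF4_EZH2 libraries, 18, 20 and 18 in DNTCF4_SET and 5, 6 and 7 in DNTCF4, against 21, 25 and 21 in Vector. The 5 low members that fell in DNTCF4 were also fitted without Vector replicate 2. Lhx2 was then at -3.39, Msx3 at -2.75, Pax8 at -1.88 and Pax5 at -1.01 on the log2 scale, and Lhx9 was at -0.84 and lost its call (adjusted p = 0.212 in edgeR). Vector replicates 1 and 3 still held more receptor reads than any DNTCF4 library, so these fits do not take that difference away.

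The 5 members under the filter with the most counts were Sox8, Lhx1, Lhx4, Tbx2 and Pax3. Sox8, a neural crest and glial factor, had 26 counts over the 3 DNTCF4_EZH2 libraries, 25 in DNTCF4_SET, 21 in DNTCF4 and 27 in Vector, and Lhx1 had 12, 23, 22 and 19 in that order of groups. Lhx4 had 14, 20, 8 and 28. Tbx2, a T-box repressor, had 18, 21 and 16 counts in the groups with dominant negative TCF4 and 3 in Vector, against the order of the receptor reads. Pax3, a neural crest and muscle precursor factor, had 3, 10 and 2 counts in those groups and 42 in Vector, of which 26 were in replicate 2.

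The protein partners of these factors and the Hedgehog pathway around Gli2 were set beside them as a list of 18 genes, 17 of them tested. In DNTCF4 against Vector 7 rose and 6 fell, with a median log2 change of 0.04, where 29.5% of all genes rose and 28% fell. Hhip, which encodes a Hedgehog-binding inhibitor, had 1.41, 1.53 and 1.39 CPM in DNTCF4, against 11.5, 13.6 and 12.7 in Vector (log2 -3.12, SE 0.11, adjusted p = 3.1e-12 in edgeR). It rose with either second construct, to 3.28 ± 0.19 CPM in DNTCF4_EZH2 and 2.91 ± 0.26 in DNTCF4_SET, against 1.44 ± 0.074 in DNTCF4 (SD, n = 3 each; log2 1.18 and 1.01, adjusted p = 7.13e-06 and 5.03e-05 in edgeR). Gli1 and Ptch1, targets that Hedgehog signalling induces, did not pass the test in DNTCF4 against Vector (log2 0.07 and -0.07, adjusted p = 0.831 and 0.233 in edgeR), and both are named after their values were seen. Pknox2, a TALE homeodomain cofactor, fell (log2 -2.39, adjusted p = 3.9e-09 in edgeR), and Dach1, which works with sine oculis proteins, averaged 3.09 ± 0.50 CPM in DNTCF4 against 0.0619 ± 0.077 in Vector (SD, n = 3 each).

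Developmental factors of other families moved in both directions. Of 73 such genes 30 were tested and 10 had no count, and in DNTCF4 against Vector 8 rose and 12 fell, with a median log2 change of -0.1, beside the same 29.5% and 28% of all genes. Prrx1, a mesenchymal homeodomain factor, had 93.8, 82.6 and 85.9 CPM in DNTCF4, against 19.2, 19.9 and 20.4 in Vector (log2 2.14, SE 0.056, adjusted p = 7.59e-14 in edgeR), while its paralog Prrx2 fell (log2 -1.94, SE 0.073, adjusted p = 6.29e-12 in edgeR). Foxc1, of mesenchyme and vessels, fell too (log2 -1.24, adjusted p = 2.02e-10 in edgeR). With the second constructs 5 rose and 3 fell in DNTCF4_EZH2 and 6 rose and 3 fell in DNTCF4_SET, each against DNTCF4, where 13% and 12.5% of all genes rose and fell in DNTCF4_EZH2 and 12.7% and 13.3% in DNTCF4_SET. Prrx1 rose in each.

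The Polycomb side was measured through 14 genes of PRC2 and of the H3K27 demethylases. In DNTCF4 against Vector 12 rose and 1 fell, with a median log2 change of 0.34 where that of all genes was 0.01 and 29.5% of them rose and 28% fell. The PRC2 accessory gene Epop rose by 1.27, Ezh1 by 0.5, Jarid2 by 0.46 and the demethylase gene Kdm6a by 0.41 on the log2 scale. Against DNTCF4 1 rose and 2 fell in DNTCF4_EZH2, and 2 rose and 3 fell in DNTCF4_SET, where 13% and 12.5%, and 12.7% and 13.3%, of all genes did. Ezh2 was the 1 gene that rose in DNTCF4_EZH2 (log2 2.78) and was 1 of the 2 in DNTCF4_SET (log2 3.06). Its counts include any reads of a construct assigned to it. Cdkn2a and Cdkn2b, Polycomb targets outside the transcription factors, averaged 272 and 56.6 CPM in DNTCF4, against 371 and 90.8 in Vector, and both fell (log2 -0.45 and -0.68). Cdkn2a rose with either second construct against DNTCF4 (log2 0.36 in DNTCF4_EZH2 and 0.25 in DNTCF4_SET), and Cdkn2b did so in DNTCF4_SET (log2 0.17, adjusted p = 0.0316 in edgeR) and not in DNTCF4_EZH2 (log2 0.15, adjusted p = 0.0613 in edgeR).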

How the data were processed

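Expected counts per gene and rlog values (a regularised log2 scale) were deposited by the authors. STAR 2.7.8a, RSEM 1.3.3, DESeq2, cutadapt 2.3 and FastQC 0.11.8 were used with GRCm38, per the submitters' processing notes, with order, settings and use of strand not given in the sources used here. RSEM shares reads among similar genes, so closely related genes depend on that model. The deposited counts were whole numbers, so rounding changed nothing. Sample titles gave the groups and replicate numbers. Genes were filtered with filterByExpr (about 0.361 CPM in 3 libraries), scaled by TMM and fitted over 12 libraries with edgeR 4.0.16 in R 4.3.3 (quasi-likelihood test, two-sided, Benjamini-Hochberg). All 134 members matched the GENCODE annotation by gene ID.

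Members, lists and tests were chosen with earlier results of these data known. Described with values were called members with separate groups and at least 0.5 CPM, members at 5 CPM or more, the highest of each family, and up to 4 genes per other list. The fit was tested on simulated data. Some members are counted in the totals and not reported here by name or drawn. Alternatives were DESeq2 1.42.0, its size factors, limma 3.58.1 on the rlog values, other filters, fewer libraries and a replicate block.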

Additional observations from a re-analysis of the deposited data

How the results depend on the processing

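Among the single-member results of the 39 tested members, in the alternatives run, none turned its direction past the threshold. The 14 members lower in DNTCF4 than in Vector became 42 with no filter, 9 when members averaging under 1 CPM were left out and 38 with limma on the deposited rlog values, where 12 were higher. The counts lower than Vector became 32 with no filter and 35 on rlog values in DNTCF4_EZH2 (12 as reported), and 27 and 33 in DNTCF4_SET (13 as reported). Those fits test members of a few counts, which lie in Vector more often. Members higher in DNTCF4_SET than in DNTCF4, 4 as reported, became 9 with no filter and 2 at 1 CPM. Members higher in DNTCF4_EZH2 than in DNTCF4_SET, 1 as reported, became 3 with no filter, 3 with only the 6 libraries compared (2 lower), 0 on rlog values and 0 without Vector replicate 2 and DNTCF4_SET replicate 2, the libraries with the most receptor reads. For the other changes the cause was not tested.

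With 1 library left out the filter admitted 40 to 46 members in place of 39, also where the library was of a group not compared, so these counts mix both changes. They ran from 10 to 12 higher and 12 to 19 lower for DNTCF4 against Vector, 2 to 5 and 3 to 7 for DNTCF4_EZH2 against DNTCF4, 1 to 5 and 3 to 5 for DNTCF4_SET against DNTCF4, and 0 to 3 and 1 to 1 between the second-construct groups. The 7 lower came without DNTCF4 replicate 1. Of 2808 such single-member results 97 lost a call, 27 gained one and none reversed. Same-numbered libraries deviated together with correlations of -0.091 to 0.151, so the replicate numbers were not taken to pair samples; with the replicate number as a block, 13 members were higher and 13 lower in DNTCF4 against Vector, 4 and 3 in DNTCF4_EZH2 against DNTCF4, and 5 and 4 in DNTCF4_SET against DNTCF4. With the block Sox9 passed in DNTCF4 against Vector (adjusted p = 0.0343 in edgeR) and Dlx3 in DNTCF4_SET against DNTCF4 (0.0489), and Lhx9 in DNTCF4 (0.0601) and Tbx6 in DNTCF4_EZH2 (0.0586), both against Vector, did not. DESeq2's Wald test gave 11 and 13, 4 and 3, and 6 and 4. DESeq2 size factors shifted the median of all genes by at most 0.016 on the log2 scale. Depth limits the members under about 1 CPM, where a group held few counts.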

Other observations

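Some members under the filter, chosen after their values were seen, ran against or beyond the general order of low reads. Hoxb6, of the trunk Hox genes, had 6, 9 and 2 counts in DNTCF4_EZH2, 8, 12 and 6 in DNTCF4_SET and 1, 4 and 7 in DNTCF4, against 0, 0 and 0 in Vector, the group with the most receptor reads. Tbx18, a T-box factor of heart and ureter mesenchyme, had 0 counts in DNTCF4_EZH2, 2, 1 and 2 in DNTCF4_SET and 0 in DNTCF4, against 4, 21 and 12 in Vector. Hoxb4 was highest in Vector, as most low members were, with 1, 14 and 15 counts in those libraries. On these few counts and with no filter, its log2 change from Vector was -4.73 in DNTCF4_EZH2, -1.46 in DNTCF4_SET and -3.82 in DNTCF4.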
